A study of Tupaia belangeri with 6 samples.

Results

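The genes described here are 10 scaffold proteins of the postsynaptic density: DLGAP1, DLGAP2, DLGAP3, DLGAP4, DLG2, DLG4, SHANK1, SHANK2, SHANK3 and HOMER1. Their rows were taken by exact gene symbol from the deposited matrices, which hold 83605 rows, of which 60140 carry at least 1 UMI (unique molecular identifier, 1 captured RNA molecule). A row was found for 9 of the 10 symbols, since no row is named SHANK2. The rows of DLG4 and SHANK1 were listed at 0 in every barcode of every library, so 7 members could be measured: DLGAP1 (TSDBGID.7821), DLGAP2 (TSDBGID.14693), DLGAP3 (TSDBGID.2016), DLGAP4 (TSDBGID.5801), DLG2 (TSDBGID.4942), SHANK3 (TSDBGID.11350) and HOMER1 (TSDBGID.6199). Over all 62553881 UMIs of the kept nuclei, 3 UMIs would correspond to a level of 0.048 CPM (counts, here UMIs, scaled to a total of 1000000). A row at 0 throughout may also be a failed assignment of reads, and whether the genes are expressed was not tested.

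The study sequenced nuclei from the hippocampus of naturally aged tree shrews (TSs, Tupaia belangeri), a small mammal close to primates. It compared 3 control TSs (libraries Control 1 to 3) with 3 TSs that showed Alzheimer's-like pathology (ALP TSs, libraries ALP 1 to 3), and no treatment or transgene is given for either group. ALP TSs had been selected from an aged colony by slow performance in a maze, and the labels give neither the sex nor the exact age of an animal. Between 1614 and 7022 nuclei per library passed the filters, and their median depth ran from 1502.5 to 2187.5 UMIs. Control 2 was the smallest library, with 62 dentate granule nuclei and 34 microglial nuclei, and at most 0.465% of the barcodes were shared between any pair of libraries.

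Excitatory synapses carry a dense protein layer under the receiving membrane, the postsynaptic density, which holds glutamate receptors in place and couples them to signalling enzymes. Its scaffold is built in tiers. The membrane-associated guanylate kinases, DLG4 (PSD-95) and DLG2 (PSD-93), bind receptor tails. The DLGAP proteins (SAPAPs or GKAPs) bind the guanylate kinase domain of the DLG proteins and link them to the SHANK proteins, and HOMER1 binds the SHANK proteins. The hippocampus is rich in such synapses on the dendrites of granule and pyramidal neurons.

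Nuclei were clustered without the members among the variable genes and named from marker genes as dentate granule (Gran-like, 2708 nuclei), pyramidal (Pyra-like, 2889), inhibitory (InN-like, 2454), astrocyte (Astro-like, 3194), oligodendrocyte (Oligo-like, 8458), oligodendrocyte progenitor (OPC-like, 2715), microglia (Micro-like, 1395) and endothelial (Endo-like, 504). Another 1734 nuclei formed 1 excitatory cluster of low depth, with a median of 715 UMIs, of which Control 3 held 1097. Levels across classes are CPM within the UMIs of the class in a library, and each mean ± SD is over 6 libraries. The Endo-like class also carried markers of mural cells or fibroblasts (6 genes, 1 at 0 there), at a summed 1752 ± 243 CPM. The endothelial marker list (7 genes) stood at 6506 ± 1222 CPM there. In the other classes the mural or fibroblast list reached at most 98.0 CPM, in Astro-like nuclei. Endothelial and mural nuclei were not separated, so Endo-like levels may come from both. UMIs of different genes were not adjusted for transcript length, so levels are compared between classes and libraries and not between genes.

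All 7 measured members were higher in the neuronal classes (Gran-like, Pyra-like and InN-like) than in the glial classes (Astro-like, Oligo-like, OPC-like and Micro-like), in 6 of 6 libraries each. Among the 16484 genes with at least 10 UMIs in every library, 24.9% showed that order. The log2 difference between neuronal and glial classes was largest for DLGAP2 at 4.73 ± 0.33 (SD, n = 6 libraries), followed by the row named SHANK3 at 3.33 ± 0.24, DLGAP1 at 1.94 ± 0.51 and DLGAP3 at 1.67 ± 0.16. It was 1.39 ± 0.07 for DLG2, 1.34 ± 0.12 for DLGAP4 and 1.09 ± 0.17 for HOMER1. The exact sign-flip permutation test over 6 libraries gave p = 0.0312 for each member, the smallest value that 64 arrangements can give, and 0.0312 after Benjamini-Hochberg adjustment over the 7 members.

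**Figure D1:**
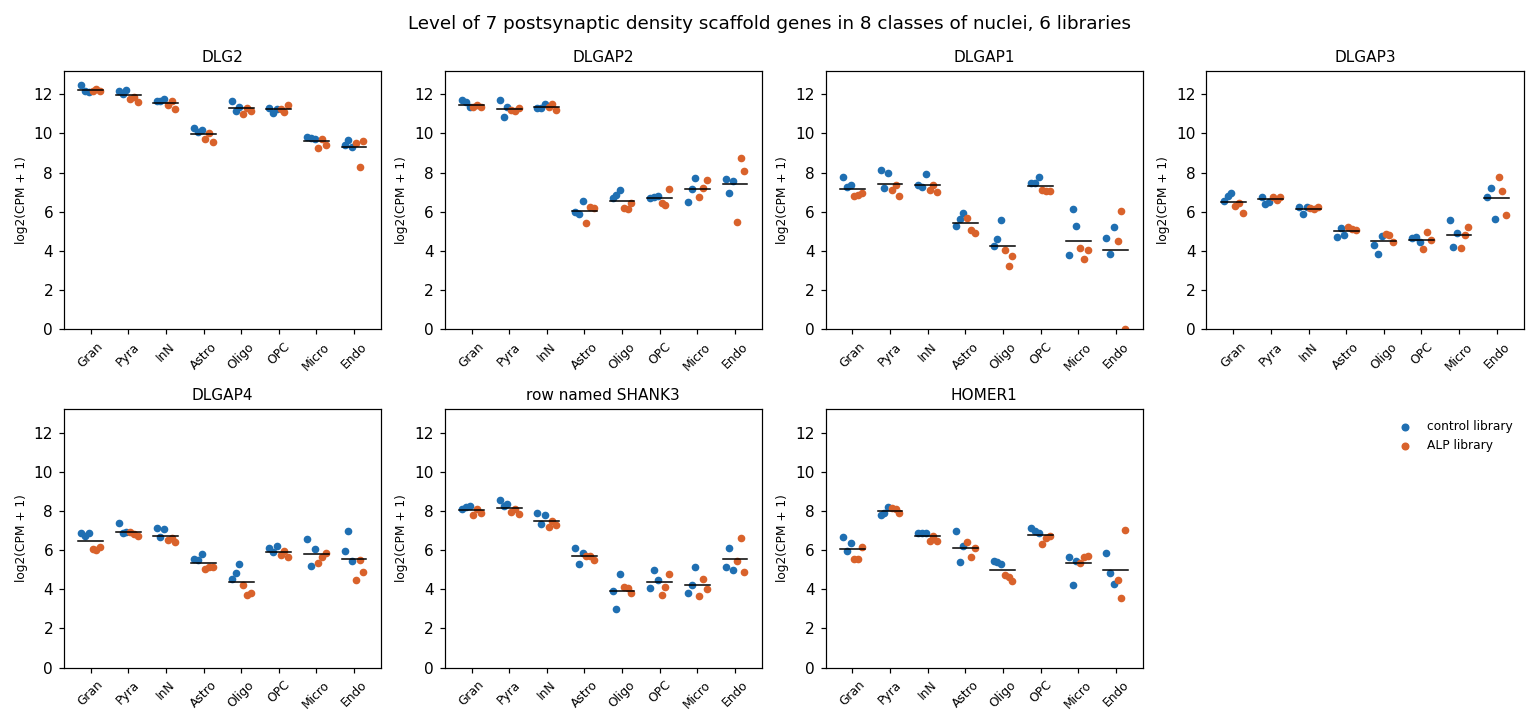
Level of each measured member (log2 of CPM plus 1) in 8 classes of nuclei, with 1 point per library (blue control, orange ALP) and a line at the mean of 6 libraries. DLGAP2 and the row named SHANK3 drop sharply outside the neuronal classes, DLG2 stays high in Oligo and OPC, and DLGAP1 is as high in OPC as in neurons.

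DLG2, the membrane-associated guanylate kinase, carried 187710 UMIs in the kept nuclei. Its level was 4817 ± 460.4 CPM in Gran-like, 3989.9 ± 676 in Pyra-like nuclei and 3056 ± 377 in the InN-like class. It was also high in the oligodendrocyte lineage, at 2512 ± 414 in Oligo-like and 2423 ± 263 in OPC-like nuclei. Astro-like nuclei held 1024 ± 188, Micro-like 787 ± 118 and Endo-like 659 ± 179.8 CPM. Oligo-like and OPC-like nuclei did not differ beyond their spread (log2 difference 0.04 ± 0.26, higher in 4 of 6 libraries), whereas OPC-like exceeded Astro-like nuclei in 6 of 6 libraries by 1.26 ± 0.37. The share of nuclei with a DLG2 UMI, after thinning each nucleus to 1000 UMIs and leaving out shallower nuclei, was 97.6% ± 1.44 in Gran-like and 89.4% ± 3.22 in Oligo-like nuclei against 32.6% ± 11.2 in Endo-like nuclei. Before thinning these shares were 98.5%, 91.5% and 38.3%, at median depths of 2890, 1330 and 1200 UMIs. The share in Oligo-like nuclei thus stood far above that in the vascular class.

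DLGAP2, a linker between DLG and SHANK proteins, was the member most restricted to neurons. Gran-like nuclei held 2863 ± 329, InN-like 2621 ± 221 and Pyra-like 2465 ± 493 CPM, and these 3 classes did not differ from each other beyond their spread (log2 differences of 0.12 ± 0.23 and 0.11 ± 0.30 between neighbours). The next class, Endo-like, was lower by 3.75 ± 1.01 on the log2 scale in 6 of 6 libraries. After thinning, a DLGAP2 UMI was found in 91.3% of Gran-like nuclei, 83.2% of Pyra-like and 84.3% of InN-like ones, against 6.09% to 12.6% of the nuclei in the 5 non-neuronal classes. The shares of 8.21% in Oligo-like and 8.53% in OPC-like nuclei were no higher than the 11.1% of Micro-like nuclei, and the share that free RNA gives was not measured.

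DLGAP1, another DLG-SHANK linker, was the member that the study also measured by RT-qPCR in tissue. Its primer pair is shown because it is the one designed reagent for these genes in the study's tables. Both oligos are 20 bases long, with a G and C content of 50% and 55%, and they could not be placed in a genome sequence here.
DLGAP1 forward: agcagcacgggtgtcataaa
DLGAP1 reverse: atactgtccaggctctccgt
In the nuclei, DLGAP1 stood at 183 ± 66.7 CPM in Pyra-like, 165 ± 39.8 in InN-like, 162 ± 34.2 in OPC-like and 148 ± 39.2 in Gran-like nuclei. No neighbouring pair among these 4 classes differed beyond its spread, with log2 differences between 0.02 and 0.15. The step below them was large: Gran-like exceeded Astro-like nuclei by 1.77 ± 0.47 on the log2 scale in 6 of 6 libraries. Oligo-like nuclei were lowest, at 20.9 ± 13.7 CPM. The thinned share of nuclei with a DLGAP1 UMI was 13.9% ± 2.96 in OPC-like and 1.85% ± 1.22 in Oligo-like nuclei, and it was 2.49% ± 2.85 in Micro-like nuclei, which rest on 35 UMIs.

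Further rows carry the name of DLGAP1. DLGAP1li1, listed 2 rows after DLGAP1, and DLGAP1li2, listed elsewhere, together held 22607 UMIs against 7271 for DLGAP1 itself, and what part of the gene they count is not given in the sources used here. Both had the same order of classes at the top: DLGAP1li1 stood at 389 ± 63.7 CPM in OPC-like and 354 ± 30.9 in InN-like nuclei, and DLGAP1li2 at 218 ± 60.5 and 194 ± 31.7.

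DLGAP4 was highest in Pyra-like nuclei (123 ± 21.9 CPM), followed by InN-like (108 ± 22.9) and Gran-like nuclei (89.7 ± 26.0), and OPC-like nuclei held 60.3 ± 9.28. DLGAP3 had its highest mean outside the neurons, in Endo-like nuclei (118 ± 61.9 CPM), beside Pyra-like (99.2 ± 10.5) and Gran-like nuclei (92.4 ± 22.8). That Endo-like value rests on 89 UMIs, ranged from 49.2 to 215 between libraries and exceeded the Pyra-like value in 3 of 6 libraries. After thinning, 11.9% ± 8.59 of Endo-like nuclei and 1.96% ± 1.48 of Micro-like nuclei held a DLGAP3 UMI.

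HOMER1 separated the excitatory classes. Pyra-like nuclei held 259 ± 29.2 CPM and Gran-like nuclei 67.7 ± 21.3, and the lowest Pyra-like library (221) lay above the highest Gran-like library (100.4). OPC-like (110.2 ± 20.9) and InN-like nuclei (105 ± 15.3) stood between them, 1.24 ± 0.41 below Pyra-like nuclei on the log2 scale in 6 of 6 libraries for OPC-like nuclei.

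Over the 49 comparisons of neighbouring classes made for the 7 members, the smallest sign-flip p was 0.0312 by construction and 0.128 after adjustment, so no single step in these orders passed the adjusted threshold.

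The row named SHANK3 needs a caution about its identity. In the deposited feature list it stands between DHCR7 and CTTN beside a row named SHANK2li1, and in the RefSeq table of the assembly TupChi_1.0 the SHANK gene near CTTN is SHANK2. A separate row named SHANK3liN stands between ACR and ARSA, where the RefSeq table places SHANK3. Which gene each row counts cannot be told apart from the matrices, so both are given under their row names. The row named SHANK3 stood at 292 ± 52.3 CPM in Pyra-like, 268 ± 33.2 in Gran-like and 182 ± 38.1 in InN-like nuclei, and at 15.4 ± 6.54 in Oligo-like nuclei. Its level in an Ependymal-like cluster of 177 nuclei was higher still, at 588 ± 183 CPM with a range from 389.8 to 876 over 6 libraries. SHANK3liN had another pattern, with its highest level in Endo-like nuclei (58.8 ± 15.9, 48 UMIs) against 26.6 ± 8.62 in Pyra-like and 1.53 ± 1.31 in Oligo-like nuclei.

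Within the neuronal classes, members varied between clusters. HOMER1 was above 200 CPM in each of the 5 Pyra-like clusters, from 214 ± 47.3 in cluster 13 (led by TSHZ2, n = 5 libraries) to 370.2 ± 224 in cluster 24 (led by NDST4 and POSTN, n = 5), where the lowest library held 33.9. Among inhibitory clusters the row named SHANK3 was 116 ± 29.7 in cluster 10 (led by SST and NPY), 162 ± 30.02 in cluster 15 (led by CNR1) and 283 ± 63.8 in cluster 14 (led by LAMP5-AS-1), and the ranges of clusters 10 and 14 did not overlap (78.8 to 144 and 219 to 395). DLG2 had a different order there, with 3925 ± 543 in cluster 10, 2665 ± 487 in cluster 14 and 2229 ± 342 in cluster 15. DLGAP2 was 3357 ± 652 in cluster 14 and 1821 ± 96.2 in cluster 16 (led by CALCR and VIP). DLGAP3 was 121 ± 30.1 in cluster 16 against 54.7 ± 7.44 in cluster 15. No test was run between clusters.

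**Figure D2:**
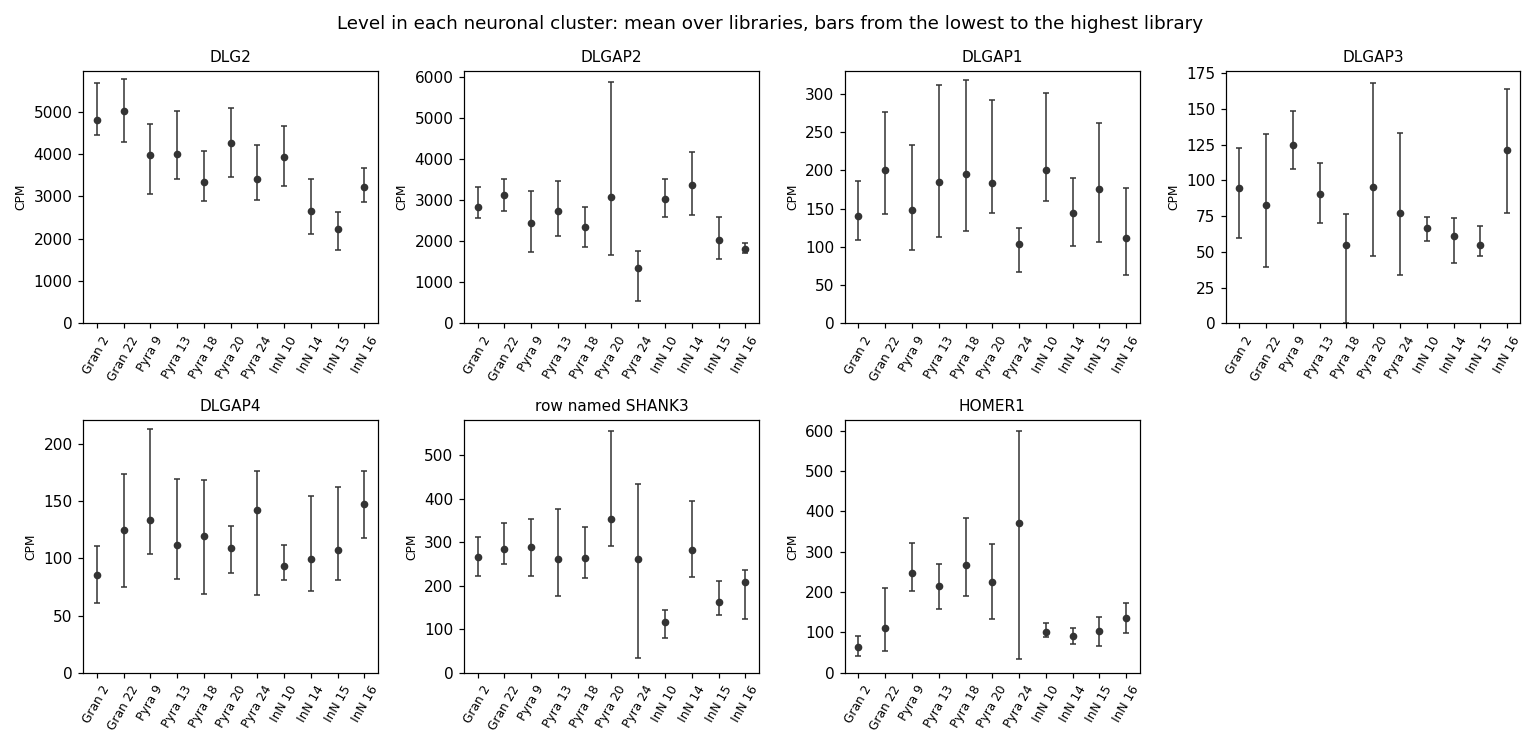
CPM of each member in the 11 neuronal clusters, as the mean over the libraries with at least 10 nuclei and bars from the lowest to the highest library. HOMER1 is low in the Gran and InN clusters and high in the Pyra clusters, and the row named SHANK3 is lowest in InN cluster 10.

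Genes most like each of the 4 members with most UMIs were found by Pearson correlation of log2 CPM over 48 sums (8 classes in 6 libraries), among 9860 genes. The sums share libraries and cell classes, so r is a description only. DLG2 was most like SOBP (r = 0.927), NBEA (0.895) and JAKMIP2 (0.881). DLGAP2 was most like GRIN2A (0.975) and GRIN2B (0.969), which encode subunits of NMDA-type glutamate receptors. The row named SHANK3 was most like DCLK1 (0.93) and TENM4 (0.923), and DLGAP1 was most like CSMD1 (0.906), NTRK3 (0.904) and AGBL4 (0.902).

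The make-up of the DLGAP family differed between classes. DLGAP2 took 89.7% ± 1.79 of the UMIs of DLGAP1 to DLGAP4 in Gran-like, 88.4% ± 1.27 in InN-like and 85.8% ± 1.60 in Pyra-like nuclei. In OPC-like nuclei DLGAP1 took the largest share, 45.9% ± 4.59, and DLGAP2 took 30.1% ± 5.71. In Astro-like nuclei no row of these had more than 36.4% ± 6.54, the share of DLGAP2, and DLGAP3 reached 31.0% ± 21.4 in Endo-like nuclei. These are shares of UMIs and not of transcripts. The rows DLGAP1li1 and DLGAP1li2 were left out, and with them the share of DLGAP1 would be larger. In Astro-like nuclei DLGAP1li1 alone held 605 UMIs against 462 for DLGAP2. In OPC-like nuclei it held 2214 against 910 for DLGAP1, and in Gran-like nuclei 2959 against 24054 for DLGAP2.

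**Figure D3:**
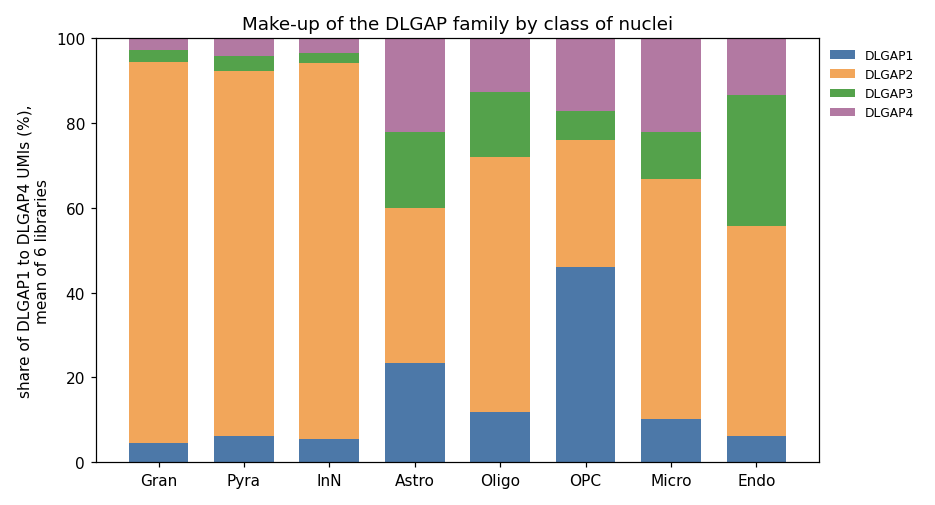
Stacked mean share (%) of DLGAP1, DLGAP2, DLGAP3 and DLGAP4 in their summed UMIs for 8 classes, over 6 libraries, with DLGAP1li1 and DLGAP1li2 left out. DLGAP2 fills 85.8% to 89.7% of the neuronal bars, and DLGAP1 fills 45.9% of the OPC bar.

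The comparison of ALP with control TSs asked whether the scaffold genes changed in any class. It used UMIs summed per class and library and edgeR's quasi-likelihood test with Benjamini-Hochberg adjustment over all genes of a class, and a gene was called at an adjusted p below 0.05 with a log2 fold change beyond 0.25. Of 56 pairs of member and class, 49 passed the filter on low counts and none was called, while 9 had an unadjusted p below 0.05. DESeq2 called none either. Over all genes, 1.56% were called in Gran-like, 0.828% in InN-like, 0.268% in Astro-like, 4.87% in Oligo-like, 1.62% in OPC-like and 1.01% in Micro-like sums, and 0% in Pyra-like and Endo-like sums. Among all genes an unadjusted p below 0.05 was reached by 18.1% in Gran-like, 16.9% in Pyra-like, 19.7% in InN-like, 17.2% in Astro-like, 21.6% in Oligo-like, 15.5% in OPC-like, 11.8% in Micro-like and 5.65% in Endo-like sums. Labels give 1 sample for each title without naming the animal, so p-values measure the spread between these samples.

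Of the 49 pairs, 36 had a negative log2 fold change in ALP TSs and 13 a positive one. The 3 ALP values lay below the 3 control values in 17 pairs and above them in 1. The shares of all genes below and above were 11.3% and 11% in Gran-like, 11.1% and 10.8% in Pyra-like, 13% and 11.4% in InN-like, 11.2% and 11% in Astro-like, 10.7% and 12.5% in Oligo-like, 9.37% and 9.36% in OPC-like, 7.11% and 8.77% in Micro-like, and 5.58% and 4.81% in Endo-like sums. The members share the same libraries and are not independent, and no test was run on these counts. Levels in this comparison are CPM within the UMIs of the genes tested, with TMM factors, and are called adjusted levels in what follows.

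**Figure D4:**
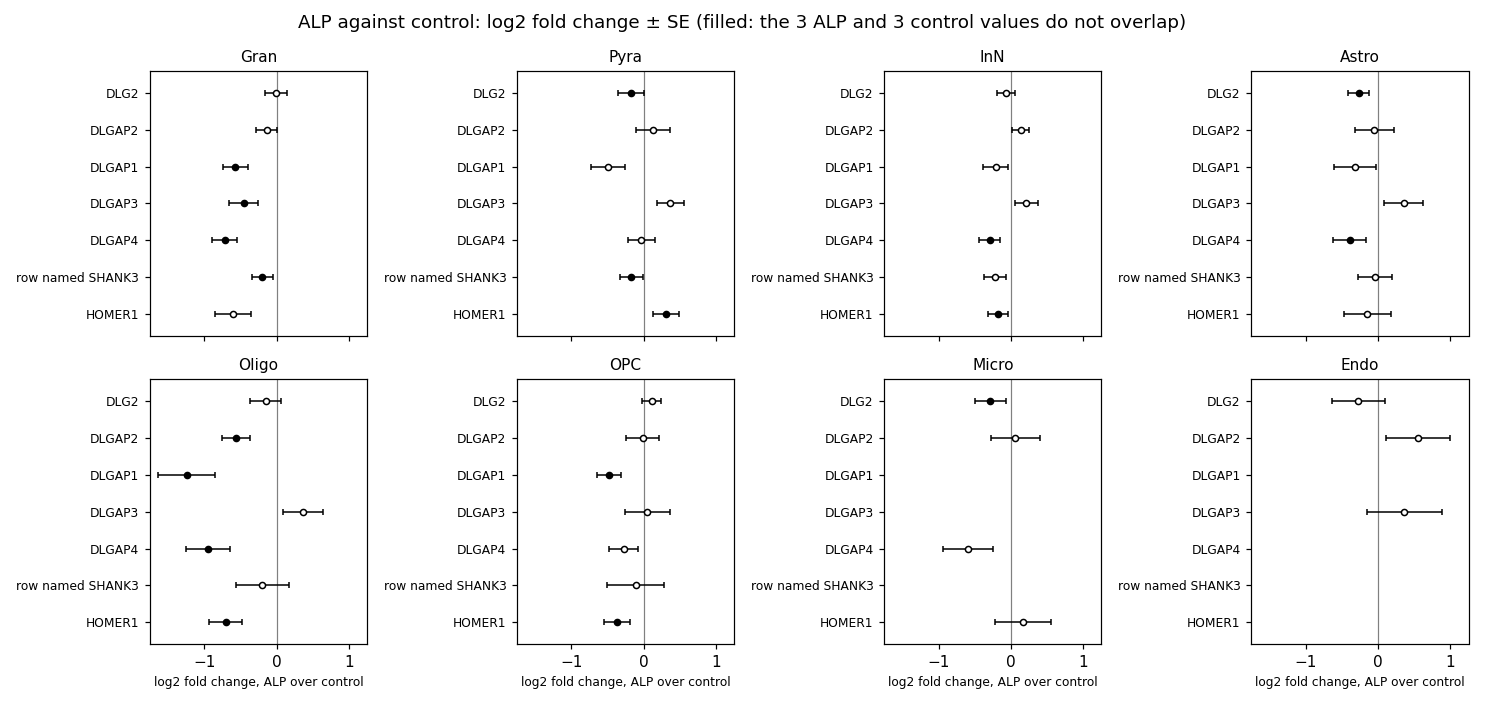
Log2 fold change (ALP over control) ± SE of each member in 8 classes from edgeR, with a filled point where the 3 ALP and 3 control values do not overlap and no point where the gene was too low to test. Most points lie left of 0, the members in Gran and Oligo farthest. DLG2 lies at -0.01, -0.17 and -0.06 in Gran, Pyra and InN, without overlap in Pyra.

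In Gran-like nuclei all 7 members had negative fold changes, although that of DLG2 turned positive under 8 of 17 alternatives (0.0015 to 0.1318), with a median log2 of -0.46 against 0.01 for all 10483 genes tested. DLGAP4 came closest to the threshold. Its adjusted levels were 120.2, 105 and 119.6 CPM in Control 1 to 3 and 70.0, 65.2 and 77.9 in ALP 1 to 3, so the groups did not overlap, and the log2 fold change was -0.72 ± 0.17 (SE; adjusted p = 0.0595, edgeR). With library totals in place of TMM factors this pair was called (adjusted p = 0.0391, edgeR). DLGAP1 stood at 221, 158 and 166 in control and 122, 119 and 135 in ALP libraries, again without overlap, with a log2 fold change of -0.57 ± 0.18 (adjusted p = 0.113, edgeR). DLGAP3 stood at 93.8, 115 and 126 against 84.2, 88.6 and 67.2 (log2 fold change -0.46 ± 0.20, adjusted p = 0.247, edgeR).

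The row named SHANK3 stood at 281, 302 and 314 in control and 243, 278 and 257 in ALP libraries, also without overlap (log2 fold change -0.20 ± 0.15, adjusted p = 0.521, edgeR).

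The other 3 members overlapped between groups in Gran-like nuclei. DLG2 stood at 5845, 4719 and 4522 in control and 5016, 4970.3 and 5045 in ALP libraries, a log2 fold change of -0.01 ± 0.15 (adjusted p = 0.996, edgeR). DLGAP2 stood at 3454, 3229 and 2678 against 2850.5, 2816 and 2854 (log2 fold change -0.14 ± 0.15, adjusted p = 0.701, edgeR). HOMER1 stood at 103, 62.3 and 83.9 against 50.3, 46.9 and 76.3 (log2 fold change -0.60 ± 0.24, adjusted p = 0.218, edgeR).

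Other measures moved with the Gran-like sums. The median depth of Gran-like nuclei was 3275, 3950 and 3287 UMIs in control and 2435, 2683 and 2480 in ALP libraries. The summed level of the Oligo marker list ran from 207 to 584 CPM in control and from 684 to 861 in ALP libraries, against 7017 ± 1005 in Oligo-like nuclei. Of the 8 genes of this list, 7 carried a UMI in the kept nuclei, and 1 of these 7 was at 0 in Gran-like nuclei. Cluster 22 held 26.3% of the Gran-like nuclei of Control 1 but 1.61% and 7.82% of those of Control 2 and 3, against 5.06% to 5.98% in ALP libraries. Within cluster 2 alone, a fit added after the data were seen that called 1.37% of all genes, DLGAP4 had a log2 fold change of -0.72 ± 0.17 (adjusted p = 0.0578, edgeR) and DLGAP1 one of -0.56 ± 0.16 (adjusted p = 0.0862, edgeR), as large as in the whole class. DLGAP3 again did not overlap there (log2 fold change -0.50 ± 0.19). The row named SHANK3 did overlap, at 270.8, 310 and 319 against 242, 271.4 and 254 (log2 fold change -0.22 ± 0.15). The part of depth and of oligodendrocyte RNA in these values was not tested.

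In Pyra-like nuclei DLGAP1 had the most negative fold change, with adjusted levels of 258, 144 and 239 in control and 154, 169.9 and 135 in ALP libraries (log2 fold change -0.49 ± 0.23, adjusted p = 0.321, edgeR), and Control 2 lay within the ALP range. HOMER1 was the only pair with 3 ALP values above the control values, at 204, 230.3 and 280.1 against 312, 282 and 289 (log2 fold change 0.31 ± 0.18, adjusted p = 0.418, edgeR). DLG2 was lower without overlap, at 4284, 4004 and 4595 against 3771, 3863 and 3779 (log2 fold change -0.17 ± 0.18, adjusted p = 0.658, edgeR). So was the row named SHANK3, at 345, 289 and 307 against 271, 284 and 280 (log2 fold change -0.18 ± 0.16, adjusted p = 0.617, edgeR). The libraries drew their Pyra-like nuclei from different clusters: cluster 13 held 3.32% to 43.3% of them in control and 8.31% to 32.8% in ALP libraries, and cluster 20 held 4.02% to 55.4% and 7.52% to 14.1%. By the ratio of mean levels, with no test, HOMER1 was higher in ALP libraries in clusters 13 and 24 (log2 0.58 and 1.252), close to equal in cluster 9 (0.01) and lower in clusters 18 and 20 (-0.25 and -0.48). DLGAP1 was lower in 4 of these 5 clusters and higher in cluster 24 (0.30, from 11 control UMIs). Only 2 control libraries had enough nuclei in clusters 13, 18 and 24. The HOMER1 control value in cluster 24 rests on 30 UMIs, and the groups overlapped there. In the fit on cluster 9 alone, where 0.0508% of all genes were called, HOMER1 had a log2 fold change of 0.21 ± 0.23 and DLGAP1 one of -0.30 ± 0.26. In InN-like nuclei, where DLGAP1 was higher in Control 3 (229.5) than in the other 5 libraries (144 to 171), the 7 log2 fold changes ran from -0.29 for DLGAP4 to 0.22 for DLGAP3.

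In OPC-like nuclei, the glial class with the highest DLGAP1 level, DLGAP1 stood at 180.4, 191 and 230.0 in control and 147, 142 and 143 in ALP libraries, which did not overlap (log2 fold change -0.48 ± 0.16, adjusted p = 0.168, edgeR). DLGAP1li2 moved the same way, from 296, 235 and 303 to 158, 211 and 181 (log2 fold change -0.61 ± 0.17, adjusted p = 0.0927, edgeR), whereas the groups of DLGAP1li1 overlapped (log2 fold change -0.18 ± 0.16). Median depth per OPC-like nucleus was 1928 to 2201 UMIs in control and 1482 to 1746 in ALP libraries, and the summed level of the Pyra marker list (10 genes) in these nuclei was 705 to 767 CPM in control and 538 to 636 in ALP libraries. That of the Gran marker list (9 genes, 1 at 0 here) was 1009 to 1178 CPM in control and 1194 to 1328 in ALP libraries. The Gran list was not confined to neurons, at 2652 ± 336 CPM in Oligo-like against 2795 ± 278 in Gran-like nuclei. The Pyra list stood at 662 ± 88.5 in OPC-like against 259 ± 34.0 in Gran-like nuclei. The summed level of 4 general neuronal markers in OPC-like nuclei overlapped, at 306 to 568 CPM in control and 324 to 379 in ALP libraries. The part of depth and of neuronal RNA was not tested.

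In Oligo-like nuclei 6 of the 7 members had negative fold changes, all of them except DLG2 at low levels. DLGAP1 stood at 17.96, 24.5 and 45.7 in control and 16.8, 8.72 and 13.4 in ALP libraries (log2 fold change -1.24 ± 0.40, adjusted p = 0.0964, edgeR), from 196 and 67 UMIs. This pair was called without the filter on low counts (adjusted p = 0.0147, edgeR) and without Control 1 (log2 fold change -1.61, adjusted p = 0.0462, edgeR). HOMER1 stood at 42.4, 42.0 and 37.1 against 27.3, 24.6 and 22.2 (log2 fold change -0.71 ± 0.23, adjusted p = 0.0969, edgeR). DLGAP4 and DLGAP2 had log2 fold changes of -0.95 ± 0.31 and -0.56 ± 0.19 (adjusted p = 0.101 and 0.122, edgeR), and none of these 4 pairs overlapped between groups. The row DLGAP1li2, which is no member, was called in this class, at 25.5, 21.0 and 22.5 against 11.9, 12.3 and 8.76 (log2 fold change -1.10 ± 0.28, adjusted p = 0.0497, edgeR).

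Over 6 libraries, mean Oligo-like levels of DLGAP1, DLGAP2, DLGAP4 and HOMER1 were 20.9, 97.5, 21.5 and 32.0 CPM. Those in Micro-like nuclei were higher, at 27.5, 149, 56.9 and 41.7 CPM. DLGAP1 in Control 3 (46.8) and HOMER1 in Control 1 (43.0) nevertheless lay above the Micro-like means. The Micro-like mean of DLGAP1 includes 70.8 CPM in Control 2, from 4 UMIs. The level that free RNA gives was not measured. The summed level of 4 general neuronal markers in Oligo-like nuclei ran from 519 to 1380 CPM in control and from 694 to 722 in ALP libraries. That of the OPC marker list (8 genes) ran from 1046 to 1500 CPM in control and from 873 to 1040 in ALP libraries, without overlap. The part of RNA from these cells was not tested. Clusters also differed: clusters 3 and 6 held 37.3% and 30.7% of control and 12.8% and 9.19% of ALP Oligo-like nuclei, while clusters 5 and 7 held 33.7% and 29.8% of ALP and 5.29% and 7.27% of control ones. In these 4 clusters the mean level of DLGAP2 was lower in ALP libraries in each (for example 76.2 against 118 CPM in cluster 3). It was also lower in clusters 12 (137 against 176) and 23 (101 against 153). In cluster 21 it was higher (156 against 117), from 15 ALP UMIs. DLG2, with 32474 UMIs in Oligo-like nuclei, had a log2 fold change of -0.15 ± 0.21 (adjusted p = 0.724, edgeR).

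In the excitatory cluster of low depth, DLGAP1 was at 335, 243 and 283 in control and 135, 168 and 91.7 in ALP libraries, without overlap (log2 fold change -1.08 ± 0.33, adjusted p = 0.419, edgeR), in a fit added after the data were seen that called 0% of 2341 genes. The ALP sums there rest on 48 to 141 nuclei, and DLGAP1 on 13, 19 and 4 UMIs in ALP 1 to 3 and 10 in Control 2. DLGAP4 was also lower without overlap (log2 fold change -0.35 ± 0.36, adjusted p = 0.928, edgeR). The remaining members overlapped, with log2 fold changes from 0.00 ± 0.30 (row named SHANK3) to 0.72 ± 0.32 (DLGAP2, adjusted p = 0.720, edgeR).

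The share of DLGAP2 in its own family lay higher in every ALP library than in any control library in the neuronal classes, a gap that 3 against 3 libraries cannot carry past the threshold. Its share of the DLGAP UMIs in Gran-like nuclei was 88.8%, 89.5% and 86.7% in Control 1 to 3 and 91.2%, 91.2% and 91.0% in ALP 1 to 3. In Pyra-like nuclei the shares were 85.7%, 83.8% and 84.7% against 86.3%, 86.0% and 88.5%. In InN-like nuclei they were 87.0%, 88.7% and 86.7% against 89.5%, 89.5% and 89.2%. ALP and control libraries did not overlap in any of the 3 neuronal classes, with differences of 2.79, 2.22 and 1.94 percentage points. The two-sided exact permutation test gave p = 0.1 for each, the smallest value this design allows, and 0.1 after adjustment over the 3 shares.

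The share of DLGAP1 lay lower in each ALP library than in any control library, with means of 4.02% against 5.14% in Gran-like, 5.12% against 7.49% in Pyra-like and 4.95% against 6.097% in InN-like nuclei. It lay lower without overlap in OPC-like nuclei too (42.9% against 48.9%). DLGAP4 also had lower shares without overlap in Gran-like, InN-like, Astro-like, Oligo-like and Endo-like nuclei. The DLGAP3 share was higher without overlap in Oligo-like (20.3% against 9.98%) and Astro-like nuclei (20.5% against 15.2%). In the glial and Endo-like classes the DLGAP2 share overlapped between groups. In the excitatory cluster of low depth DLGAP1 and DLGAP4 were lower and DLGAP2 higher without overlap. Shares within other gene families were not counted. The DLGAP shares sum to 100% and are not independent of each other. When the counts of antisense and li-numbered rows were added to their genes, the DLGAP2 share stayed without overlap in 1 of the 3 classes. Planned shares of SHANK2 among the SHANK genes and of DLG2 with DLG4 could not be formed, because the rows are absent or at 0.

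**Figure D5:**
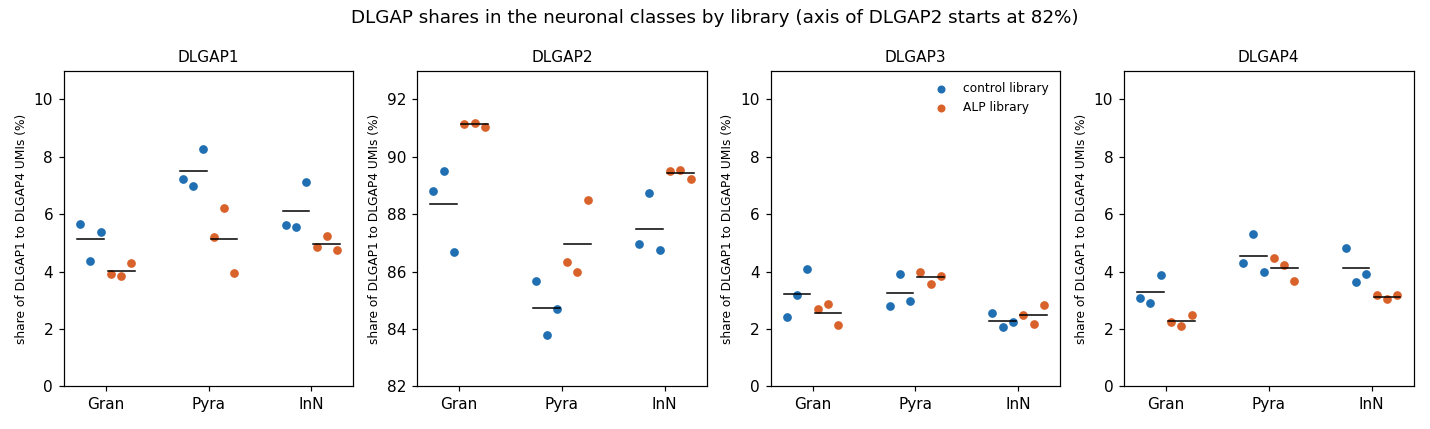
Share (%) of each DLGAP gene in the summed DLGAP UMIs in Gran, Pyra and InN nuclei, with 1 point per library and lines at the group means, the axis of DLGAP2 starting at 82%. The ALP points of DLGAP2 lie above all control points in each class, and those of DLGAP1 below.

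Whether the ALP effect differed between classes was tested with class by group terms for Gran-like against Pyra-like, InN-like and Oligo-like nuclei and for Pyra-like against InN-like nuclei. No member was called in any of these tests, where 0.345%, 0.0924%, 0.0609% and 0% of all genes were called, in that order. The largest difference was HOMER1 between Pyra-like and Gran-like nuclei, with a difference in log2 fold change of 0.91 ± 0.28 (adjusted p = 0.28, edgeR), which was called without the filter on low counts.

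With all nuclei of a library summed, 5 members had a positive and 2 a negative fold change. DLGAP3 was also positive in every tested class except Gran-like, and HOMER1 and DLGAP2 were already positive in Pyra-like nuclei (0.31 and 0.13). HOMER1 stood at 98.6, 103 and 91.4 adjusted CPM in control and 145, 121 and 126 in ALP libraries (log2 fold change 0.42 ± 0.14, adjusted p = 0.126, edgeR). DLGAP2 and DLGAP3 had log2 fold changes of 0.43 ± 0.18 and 0.40 ± 0.15 (adjusted p = 0.197 and 0.153, edgeR), while DLGAP1 had one of -0.22 ± 0.14. No member was called, and 0% of 22749 genes were, although 23.4% had an unadjusted p below 0.05. Pyra-like nuclei gave 12.5%, 14.2% and 7.23% of the UMIs of the kept nuclei of Control 1 to 3 and 32%, 24% and 27.5% of those of ALP 1 to 3. In such sums fewer cells of a type and less RNA per cell cannot be told apart.

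Beside the members, 5 lists of synaptic genes were examined in the same fits. Of 34 other postsynaptic density scaffold and signalling genes, 11 to 26 were tested per class and none was called. Their median log2 fold change was -0.01 in Gran-like, 0.04 in Pyra-like and -0.27 in Oligo-like sums, where the medians of all genes were 0.01, 0.00 and -0.00. None of the 10 auxiliary subunits of glutamate receptors, 7 genes of the inhibitory postsynapse and 12 genes of the presynaptic active zone was called in a class. Among 25 synaptic adhesion genes, 1 was called, LRRTM3, a postsynaptic leucine-rich repeat protein that binds neurexins. In Oligo-like nuclei LRRTM3 stood at 666, 489 and 755 adjusted CPM in control and 327, 311 and 255 in ALP libraries (log2 fold change -1.11 ± 0.21, adjusted p = 0.0191, edgeR). In Micro-like nuclei it ran from 158 to 393 in control and from 67.2 to 96.1 in ALP libraries (log2 fold change -1.64 ± 0.33, adjusted p = 0.0244, edgeR). The summed level of the Oligo marker list (8 genes, 7 with a UMI, 1 of these at 0 here) in Micro-like nuclei was 1833 to 2177 CPM in control and 1609 to 1644 in ALP libraries, without overlap, and its part was not tested. LRRTM3 fell in both classes by this test. Both calls were lost without Control 3, without ALP 1 or without ALP 3, and the Micro-like call also without ALP 2. Same-numbered libraries as a block kept only the Micro-like call.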

How the data were processed

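Raw UMI counts for every gene in every nucleus barcode were deposited, made with Cell Ranger (3.1.0 in the submitters' processing notes, 6.1.2 in the matrix headers) from Chromium 3′ libraries aligned to the TreeshrewDB genome, and neither its build nor the use of strand is given in the sources used here. Nuclei with at least 200 and fewer than 2500 genes and under 5% mitochondrial UMIs were kept. The upper limit removed 16.0% (ALP 3) to 46.4% (Control 2) of a library's barcodes, and kept nuclei held 21.1% to 54.3% of its UMIs. Without it, Pyra-like nuclei numbered 610 to 999 in control and 948 to 1740 in ALP libraries, against 164 to 547 and 553 to 716 with it. InN-like nuclei numbered 735 to 1135 and 399 to 793, against 300 to 483 and 294 to 491. Neuronal levels and shares leave out many deeper nuclei. Counts were scaled to 10000 per nucleus, log-transformed and clipped at 10, and 2000 variable genes without the members, 30 principal components and 20 neighbours were clustered at a Leiden resolution of 2 (scanpy 1.11.5, leidenalg 0.10.2). A class name needed 3 markers, each in 3% or more of the nuclei and enriched 1.5-fold or more, with thresholds set after seeing the data, and clusters with at least 15% nuclei marked as doublets stayed unnamed, so names may differ from those of the study.

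UMIs were summed per class and library with at least 10 nuclei and tested with edgeR 4.0.16 (R 4.3.3, TMM, minimum count 10), after a check on simulated counts, with DESeq2 1.42.0 as an alternative. Levels use a prior count of 0.5 in log2 differences, and exact tests used scipy 1.17.1. Same-numbered libraries did not deviate together, so no pairing was used. The members and gene lists were chosen with earlier results of these data known. All members are described in each class. Fold changes are given for pairs at the highest level of a member, called, with an unadjusted p below 0.05 or otherwise picked after their values were seen. List genes are named where called, and the 3 most similar genes for the 4 members with most UMIs, of which some are not reported here. Other settings are in the closing section.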

Additional observations from a re-analysis of the deposited data

How the results depend on the processing

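No member was called with DESeq2, upper-quartile factors, the replicate block, no upper limit on genes, marked doublets left out, resolution 1, 20 principal components or members among the variable genes. With library totals alone 1 pair was called, DLGAP4 in Gran-like nuclei (log2 fold change -0.80, adjusted p = 0.0391, edgeR), and without a filter on low counts 1 pair, DLGAP1 in Oligo-like nuclei (-1.21, adjusted p = 0.0147). With antisense and li-numbered rows added 2 pairs were called, DLGAP4 in Gran-like (-0.76, adjusted p = 0.04998) and DLGAP1 in Oligo-like nuclei (-0.92, adjusted p = 0.0335). Leaving out 1 library gave 0 to 1 pairs, the 1 being DLGAP1 in Oligo-like nuclei without Control 1 (-1.61, adjusted p = 0.0462). The number of DLGAP2 shares without overlap was 1 in place of 3 with those rows added. Leaving out 1 library cannot bring an overlap into these shares, which are ratios within a library, and so is no check on them. All 7 members kept the neuronal order under every alternative run. Members whose ALP effect differed between classes numbered 1 without the filter (HOMER1, Gran-like and Pyra-like) and 0 to 1 when 1 library was left out (DLGAP1, Gran-like and Oligo-like, without Control 1). The cause was not tested.

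Calls among the other synaptic genes, 2 in the report, numbered 6 with library totals alone, 8 without the filter, 4 without the upper limit on genes, 1 each with the replicate block, without marked doublets and with 20 principal components, and 0 to 6 when 1 library was left out. The fold change of DLGAP4 in Pyra-like nuclei turned positive with DESeq2 (0.0079), without the filter (0.0957), without Control 1 (0.1647) and without ALP 2 (0.0256), and among fits without 1 library was lowest at -0.0926 (without Control 3). That of DLG2 in Gran-like nuclei turned positive with DESeq2 (0.0523), without the filter (0.0783), with the replicate block (0.0038), without the upper limit (0.0015) and without Control 1 (0.1318), ALP 1 (0.0281), ALP 2 (0.0115) or ALP 3 (0.0018), and was lowest without Control 3 (-0.0659) when 1 library was left out.

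Over 17 alternatives the adjusted p of DLGAP4 in Gran-like nuclei ran from 0.0391 to 0.247, that of DLGAP1 in Gran-like from 0.0544 to 0.394 and that of DLGAP1 in Oligo-like from 0.0147 to 0.48. Deviations of same-numbered libraries correlated at -0.111, -0.0601 and -0.0975, so the numbers do not pair the samples. With the number as a block, genes called went from 164 to 4 in Gran-like, 99 to 1 in InN-like, 27 to 6 in Astro-like, 567 to 168 in Oligo-like, 142 to 1 in OPC-like, 50 to 24 in Micro-like, 0 to 1 in Pyra-like and 0 to 3 in Endo-like sums. Endo-like nuclei could not be named without the upper limit on genes. Depth limits the scarce members: DLGAP1 in Oligo-like nuclei rests on 263 UMIs and DLGAP3 in Endo-like nuclei on 89.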
